A study of Macaca mulatta with 28 samples.

Results

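RHEB and the genes of the mechanistic target of rapamycin (mTOR) complexes were followed in the VTA (ventral tegmental area, the source of the dopamine fibres that reach the nucleus accumbens) of 28 male rhesus macaques. The 9 genes are RHEB, MTOR, RPTOR, RICTOR, MLST8, TSC1, TSC2, AKT1S1 and DEPTOR, taken by symbol from a table of 16885 named transcripts. RHEB was selected on measured values of these animals, since its log2 difference between drinkers and controls depended on the cohort. Its levels by group and its differences between drinkers and controls are therefore given as a description without a test, whereas the other 8 genes were added as its pathway partners. Of the 9, 6 passed the filter on low counts (at least 5 counts in at least 3 animals), as did 13769 of all transcripts.

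RNA from VTA punches was sequenced with 1 library per animal. The 17 drinkers self-administered 4% (w/v) ethanol from a home cage panel, with open access for 12 months, and then went through 3 forced abstinence periods separated by renewed access of 3 months, with tissue taken after 30 days of the last abstinence. The 11 controls were calorically yoked or housing controls, which the labels do not separate, and all animals were wild type. Cohort 1 (numbered from Heavy-10208 to Control-10223) had 8 drinkers and 8 controls, and cohort 2 (from Control-10241 to Very Heavy-10252) had 9 drinkers and 3 controls. By the drinking phenotype in the labels, cohort 1 drinkers comprised 3 very heavy, 4 heavy and 1 low drinker, and those of cohort 2 comprised 6 very heavy, 1 heavy and 2 binge drinkers, so that category and cohort are unevenly mixed. Total counts lay between 12303977 and 27338712 per animal, of which 36.4% to 60.6% were mitochondrial. No 2 libraries had identical counts for more than 0.940% of transcripts, where transcripts with few counts in both libraries together were left out. The dopamine neuron markers TH (tyrosine hydroxylase), SLC6A3 (dopamine transporter) and SLC18A2 (vesicular monoamine transporter) were present in every group but over a wide range, TH from 5.58 to 826.0 CPM (counts scaled to library size). In bulk tissue, fewer cells of a type and less RNA per cell cannot be told apart.

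RHEB is a small GTPase that, when bound to GTP on the lysosome, activates the kinase mTOR in mTOR complex 1. The kinase (MTOR) and its partner MLST8 are shared by both complexes, RPTOR (raptor) defines complex 1 and RICTOR defines complex 2, and AKT1S1 (PRAS40) and DEPTOR are inhibitory subunits. TSC1 and TSC2 form the complex that switches RHEB off by stimulating GTP hydrolysis. In neurons, complex 1 controls translation at synapses, and it has been widely studied in the mesolimbic system for lasting responses to alcohol and other drugs.

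Each symbol of the table stands for 1 Ensembl transcript, so reads that Salmon gave to further transcripts of the same gene are missing from the level shown. In the rhesus assembly Mmul_10 the RHEB gene (ENSMMUT00000082593.1) lies at chr3:177465325-177517200 on the minus strand. Its closest relative, RHEBL1, lies at chr11:48674552-48680178, also on the minus strand. Of the 1074 windows of 31 bases in the RHEB transcripts of RefSeq, 0 occurred in a transcript of any other gene. Over their coding sequences of 555 and 552 bases the genes had 335 identical bases in 560 aligned columns, or 59.8%. The last 60 coding bases are shown because they end in the CaaX box, the motif whose farnesylation anchors RHEB to membranes, and because reads from the 2 genes differ there. Capitals mark the CaaX codons and the stop codon (RefSeq, Mmul_10, coding strand).
RHEB: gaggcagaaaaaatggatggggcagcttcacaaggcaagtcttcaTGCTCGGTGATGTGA
RHEBL1: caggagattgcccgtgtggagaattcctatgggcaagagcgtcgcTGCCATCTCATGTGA

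RHEB was abundant in every animal, with 1292 to 3220 counts. In CPM scaled by trimmed mean of M values (TMM), the cohort 1 controls ranged from 89.6 to 115.8 with a median of 99.0, and the cohort 1 drinkers from 112.6 to 149.3 with a median of 126.1. Of the 8 drinkers of this cohort, 6 lay above every control, and 7 of the 8 controls lay below every drinker. In cohort 2 the order turned. The controls had 103.1, 125.1 and 127.9 CPM, and the drinkers ranged from 87.7 to 106.6 with a median of 100.7. Of the 3 controls, 2 lay above all 9 drinkers, while the third, Control-10250, lay among them. Cohort 1 drinkers and cohort 2 drinkers did not overlap, which was true of 36 transcripts (0.261%) in either direction. The cohort 1 controls and the cohort 2 drinkers covered nearly the same range, with means of 99.4 ± 9.26 (SD, n = 8) and 98.9 ± 6.89 CPM (SD, n = 9), and the groups that were high were the cohort 1 drinkers at 128.3 ± 13.3 (SD, n = 8) and the cohort 2 controls at 118.7 ± 13.6 (SD, n = 3). In order of the group means (cohort 1 drinkers, cohort 2 controls, cohort 1 controls, cohort 2 drinkers), the ranges of all neighbours overlapped.

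**Figure D1:**
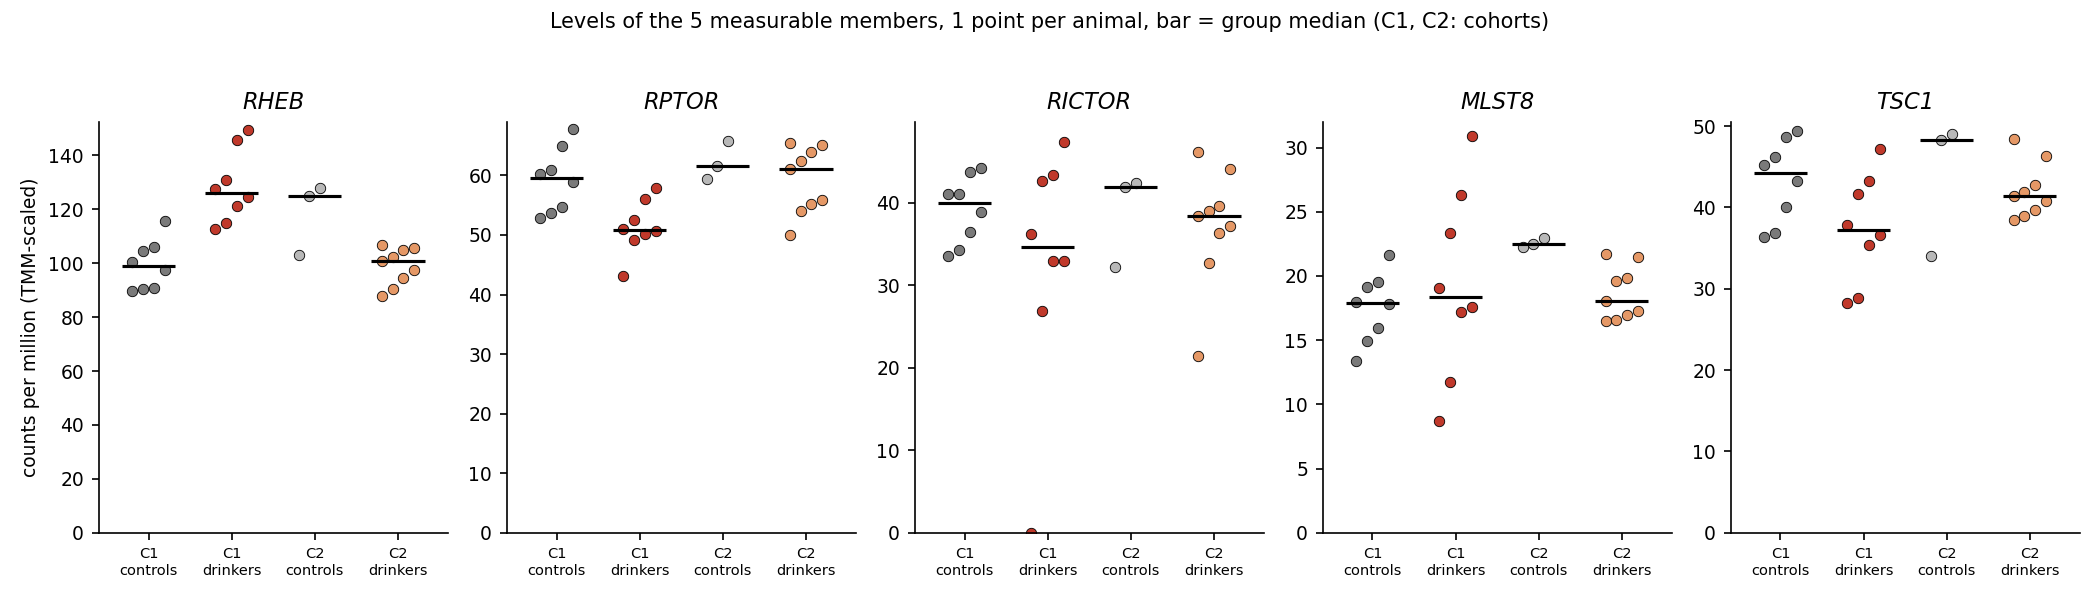
TMM-scaled CPM (vertical axes, from 0) of the 5 members with counts in nearly every animal, by cohort and group (horizontal axes), with 1 point per animal and a bar at the group median. For RHEB the cohort 1 drinkers, from 112.6 to 149.3, lie above all cohort 2 drinkers, from 87.7 to 106.6, and RICTOR was listed at 0 in 1 cohort 1 drinker.

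Fitted in a model with 1 mean for each of the 4 groups, the log2 difference of RHEB between drinkers and controls was 0.37 (SE 0.068) in cohort 1 and -0.26 (SE 0.090) in cohort 2, and the cohort 2 value minus the cohort 1 value was -0.63 (SE 0.11). These are the values on which RHEB was chosen. Pooled over 28 animals, the opposite directions left 0.11 (SE 0.081), with means of 112.7 CPM in drinkers and 104.7 in controls. Across all transcripts, edgeR's quasi-likelihood test with Benjamini-Hochberg adjustment called 132 of 13769 (0.959%) in cohort 1, 52 higher and 80 lower in drinkers. It called 0 (0.0%) in cohort 2 and 0 (0.0%) over 28 animals, and 2 transcripts (0.0145%) for the difference between cohorts. Unadjusted p was under 0.05 for 14.7% of transcripts in cohort 1, 2.0% in cohort 2, 4.57% over 28 animals and 9.62% for the difference between cohorts.

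Leaving out any 1 animal kept the log2 difference of RHEB between 0.33 and 0.40 in cohort 1 and between -0.35 and -0.21 in cohort 2. Since cohort 2 has 3 controls, its value rests on few animals. It was largest in size without Control-10250, the low control, and smallest without Control-10241, the control with the most RHEB.

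Markers of neurons moved with RHEB. The neuron list held 8 genes, of which 7 passed the filter, and RBFOX3 was at or near 0 in every group. The summed level of the 7 ranged from 3153 to 9836 CPM in cohort 1 controls (median 4577), from 4079 to 19180 in cohort 1 drinkers (median 8224) and from 3257 to 5233 in cohort 2 drinkers (median 4487). In the cohort 2 controls it had a median of 8819 and a range from 4171 to 9507. The 4 group means of the neuron list, 9500 in cohort 1 drinkers, 7499 in cohort 2 controls, 5528 in cohort 1 controls and 4275 in cohort 2 drinkers, stood in the same order as those of RHEB. Neurofilament genes carried most of the sum, NEFM (medium chain) with a mean of 4944 CPM and NEFL (light chain) with 2634 in cohort 1 drinkers, against 2465 and 1596 in cohort 1 controls. The scarce members did not share this order of the 4 groups. ELAVL4 had a mean of 1.30 CPM in cohort 1 drinkers and 2.82 in their controls. STMN2 was highest in the cohort 2 controls (16.3) and drinkers (11.8). Its drinkers and controls still differed in the direction of RHEB in both cohorts, with 6.63 and 4.64 CPM in cohort 1. SYT1 was lowest in the cohort 2 controls (0.218), and had 1.30 in cohort 1 drinkers and 0.451 in their controls.

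The relation also held among animals of the same group. With the group means removed, RHEB and the neuron level correlated over 28 animals at Pearson's r = 0.71 (permutation p = 0.00029, adjusted over 11 measures 0.00319) and Spearman's rho = 0.71 (permutation p = 0.00027, adjusted 0.00297). Leaving out the 2 animals whose RHEB deviated most from the median gave an r of 0.59 (adjusted permutation p = 0.0618). Within cohort 1 it was 0.67 (adjusted permutation p = 0.0488) and within cohort 2 it was 0.91 (adjusted permutation p = 0.013). Member by member, r with RHEB was 0.68 for NEFL, 0.66 for NEFM, 0.62 for SNAP25 (a synaptic fusion protein) and 0.60 for UCHL1 (a neuronal ubiquitin hydrolase), and -0.02 to 0.19 for STMN2, SYT1 and ELAVL4, which were scarce here. Of the other cell types, the glutamate neuron markers SLC17A6 and SLC17A7 reached r = 0.55 (adjusted permutation p = 0.0247, rho 0.48 with adjusted 0.0521), with 0.72 in cohort 1 and 0.15 in cohort 2. RHEB gave r = -0.05 with the 12 dopamine neuron markers, 0.17 with GABA neurons, -0.45 with oligodendrocytes, -0.34 with astrocytes, -0.14 with microglia and 0.24 with endothelial cells, none with an adjusted permutation p under 0.05. The blood list had 0 genes that passed.

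The base composition of the libraries moved with RHEB between groups as well. RHEB has 37.6% GC in its RefSeq transcripts against a median of 50.3% over the transcripts tested. The GC slope of a library, the change of log2 level per 10 percentage points of GC relative to the mean of all libraries, had a median of 0.068 in cohort 1 controls (from -0.020 to 0.181) and -0.080 in cohort 1 drinkers (from -0.107 to 0.004), so that GC-poor transcripts read higher in the latter. The median was -0.034 in cohort 2 controls (from -0.055 to 0.015) and 0.015 in cohort 2 drinkers (from -0.069 to 0.082). The range of these controls lay within that of the drinkers. Within groups, RHEB and the slope gave r = 0.02 (permutation p = 0.914).

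The RHEB difference was recomputed with each of these taken out, alternatives chosen after seeing the data. With a smooth GC trend removed from each library, the log2 difference was 0.21 in cohort 1 and -0.22 in cohort 2, and the difference between cohorts -0.42. With the neuron level as a covariate the values were 0.27, -0.15 and -0.42. The directions in both cohorts stayed, and the difference between cohorts was smaller in either case. Whether neuron content or base composition has a part in the RHEB values beyond these values was not tested.

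**Figure D2:**
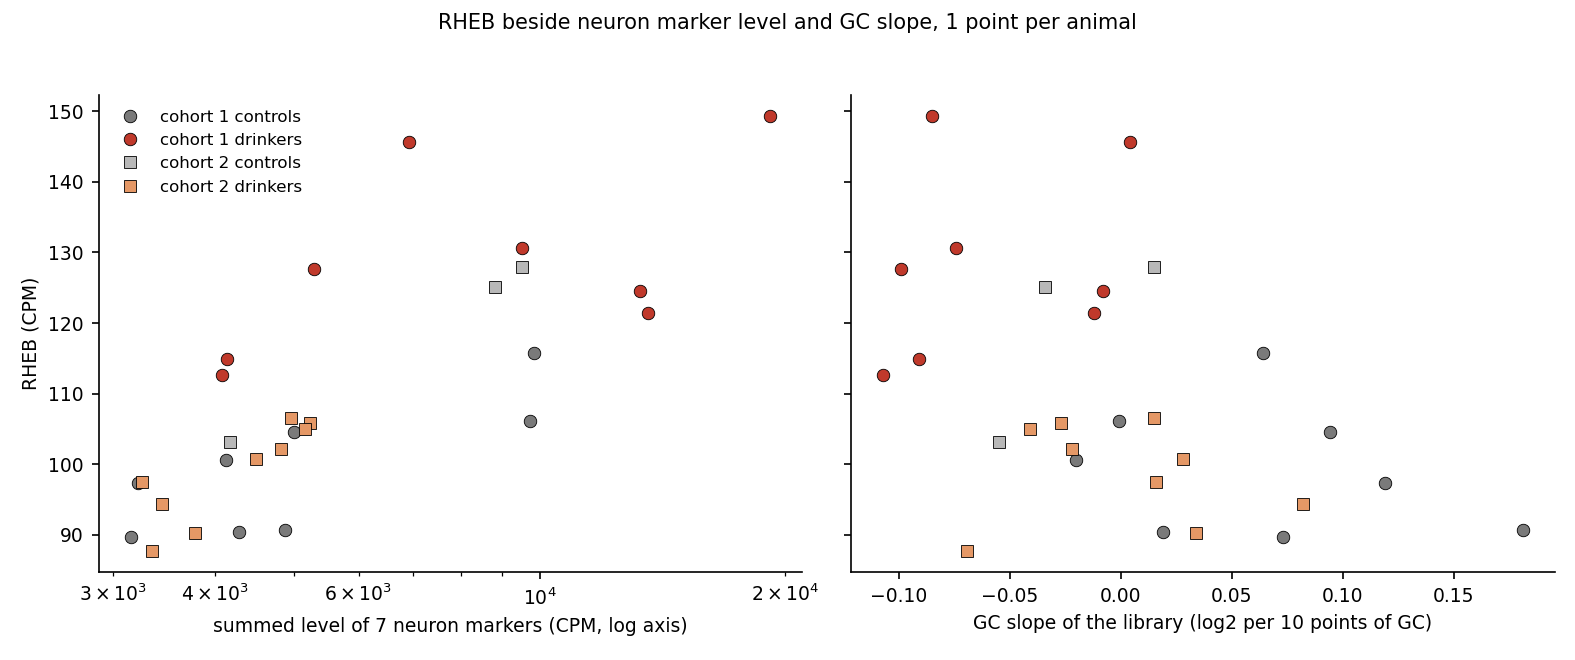
RHEB in CPM (vertical axes) against the summed CPM of 7 neuron markers (left, log axis) and the GC slope of the library in log2 per 10 percentage points of GC (right), with 1 point per animal and colors for the 4 groups. RHEB rises with the neuron markers within groups (r = 0.71 with group means removed) but not with the GC slope (r = 0.02), and the cohort 1 groups overlap on both horizontal axes while their medians differ.

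Among drinkers, the labels allow a comparison that holds no control. Within cohort 1, the 3 very heavy drinkers had 127.6, 145.6 and 149.3 CPM of RHEB, the 4 heavy drinkers ranged from 112.6 to 130.7, and the low drinker had 114.9. Within cohort 2, the 6 very heavy drinkers ranged from 90.3 to 106.6, the heavy drinker had 105.0, and the binge drinkers had 87.7 and 100.7. With cohort as a covariate, the log2 difference of very heavy from heavy drinkers was 0.10 (SE 0.078; edgeR adjusted p = 0.986), with a fold change of 1.07 and a 95% interval from 0.963 to 1.19. It did not pass, and the interval excludes neither a small decrease nor an increase of the size of its upper bound. It was 0.19 without Heavy-10251, the single heavy drinker of cohort 2, and 0.06 without Heavy-10213. Without the covariate the value was -0.08, since 6 of the 9 very heavy drinkers belong to cohort 2. Across 12934 transcripts this comparison called 0 (0.0%), with an unadjusted p under 0.05 for 4.85%, and 0 of the 6 members that passed the filter were called.

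Of the 5 other members that could be tested (MTOR, RPTOR, RICTOR, MLST8 and TSC1), 0 were called by edgeR in any of the 5 comparisons, and 2 had an unadjusted p under 0.05, both in cohort 1 and both lower in drinkers, where 14.7% of all transcripts did. Their median log2 difference in cohort 1 was -0.21, beside -0.01 over all transcripts, and 3 of the 5 were negative. In cohort 2 it was -0.06, beside 0.01.

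RPTOR (ENSMMUT00000009463.4, chr16:76882261-77302938, plus strand), which encodes raptor, the scaffold that presents substrates to complex 1, came closest. Its cohort 1 controls ranged from 52.8 to 67.7 CPM with a median of 59.6, and the cohort 1 drinkers from 43.1 to 58.0 with a median of 50.9. Of the 8 drinkers, 6 lay below the lowest control. The cohort 2 controls had 59.3, 61.6 and 65.9 CPM and the drinkers ranged from 50.1 to 65.5 with a median of 61.0, so that these groups overlapped widely. The log2 difference was -0.21 (SE 0.068; edgeR adjusted p = 0.128) in cohort 1 and -0.07 (SE 0.091; adjusted p = 1.0) in cohort 2, and the difference between cohorts was 0.13 (SE 0.11; adjusted p = 0.837). With the GC trend removed, the cohort 1 value was -0.05, and the adjusted p ranged from 0.116 to 0.938 over the alternatives that kept all animals or 1 cohort.

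TSC1 (ENSMMUT00000013850.4, chr15:7425869-7480287, plus strand) encodes hamartin, which stabilizes TSC2 in the complex that inactivates RHEB. In cohort 1 the controls ranged from 36.4 to 49.4 CPM with a median of 44.3 and the drinkers from 28.2 to 47.1 with a median of 37.2, with 3 of the 8 drinkers below all controls. In cohort 2 the controls had 34.0, 48.3 and 49.1 CPM and the drinkers 38.5 to 48.5, within the range of the controls. The log2 difference was -0.21 (SE 0.10; edgeR adjusted p = 0.321) in cohort 1 and -0.06 (SE 0.13; adjusted p = 1.0) in cohort 2. The latter ranged from -0.21 to 0.03 as single animals were left out. Very heavy drinkers were lower than heavy drinkers by a log2 difference of -0.23 (SE 0.12; edgeR adjusted p = 0.973), which did not pass.

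RICTOR (ENSMMUT00000002281.4, chr6:38777955-38906832, minus strand), the defining subunit of complex 2, was listed at 0 in Very Heavy-10215, a drinker of cohort 1, although this library held 24845544 counts. The other 7 drinkers of that cohort ranged up to 47.4 CPM from 26.8, their controls from 33.6 to 44.2, the cohort 2 drinkers from 21.4 to 46.2, and the cohort 2 controls had 32.2, 41.9 and 42.4. All groups overlapped. The log2 difference in cohort 1 was -0.26 (SE 0.42; adjusted p = 0.892) with this animal and -0.06 without it, and limma-voom gave -1.36 with it. In very heavy against heavy drinkers it was -0.71 (SE 0.76; adjusted p = 0.998), and -0.27 without it.

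MLST8 (ENSMMUT00000027015.4, chr20:2238170-2242908, plus strand), the subunit that stabilizes the kinase in both complexes, varied most among cohort 1 drinkers, from 8.67 to 30.9 CPM, with a coefficient of variation of 37.9% against 15.3% in their controls. The highest 3 values of that group belonged to heavy drinkers and the lowest to the low drinker. In cohort 2 the controls had 22.3, 22.5 and 22.9 CPM, all above the 9 drinkers, which ranged from 16.5 to 21.7. Such a separation of the cohort 2 groups was seen for 86 transcripts (0.625%). The fitted log2 difference in cohort 2, -0.27 (SE 0.23; edgeR adjusted p = 1.0), did not pass, and that in cohort 1 was 0.14 (SE 0.17; adjusted p = 0.824), from 0.02 without Heavy-10208 to 0.25 without Low-10210. The difference between cohorts was -0.42 (SE 0.28; adjusted p = 0.736). Of the 2558 windows of 31 bases in MLST8 transcripts, 4.61% also occurred in the neighbouring gene BRICD5, so its counts carry some uncertainty.

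The remaining members could hardly be measured through the transcripts listed. The listed transcript of MTOR (ENSMMUT00000027142.4, chr1:213196834-213345455, plus strand), the kinase itself, was at 0 in 11 of 28 animals and reached at most 3.25 CPM, so its differences are not given. TSC2 (ENSMMUT00000004006.4, chr20:2077576-2118411, plus strand), the subunit that inactivates RHEB, was at 0 in all 28. AKT1S1 (ENSMMUT00000090777.1, chr19:49848984-49857498, minus strand) was counted in 2 animals, a cohort 1 control with 37 counts and a cohort 2 drinker with 13, and DEPTOR (ENSMMUT00000003694.4, chr8:120147019-120333234, plus strand) in 2 cohort 1 drinkers with 61 and 11 counts. These values speak only of the transcripts in the table.

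**Figure D3:**
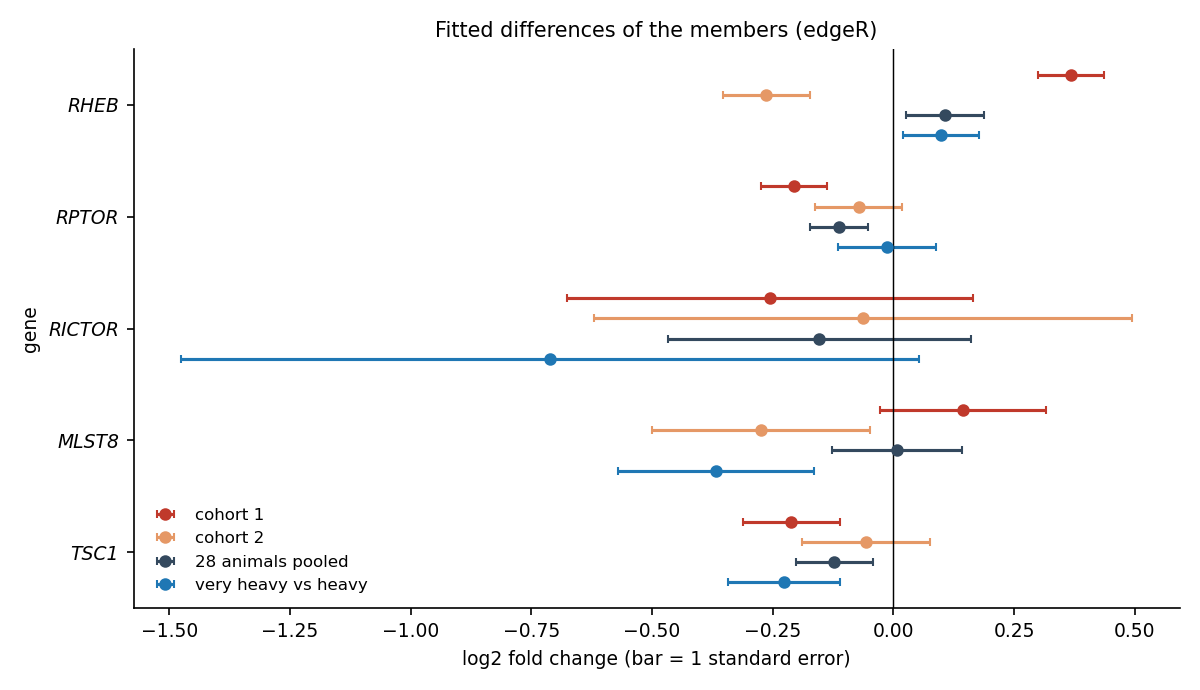
Fitted log2 fold changes (horizontal axis) of the 5 well-counted members (vertical axis) in 4 comparisons by edgeR, with points for the estimates and bars for 1 standard error. RHEB lies at 0.37 in cohort 1 and -0.26 in cohort 2 on opposite sides of 0, whereas the other members lie between -0.27 and 0.14 in the cohorts.

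Within groups, RICTOR and TSC1 were the only pair of members with an adjusted permutation p under 0.05. With group means removed, these correlated at r = 0.565 (permutation p = 0.00053, adjusted over 15 pairs 0.00795) and rho = 0.69 (adjusted permutation p = 0.00315). Their r was 0.60 in cohort 1 (adjusted permutation p = 0.0928) and 0.55 in cohort 2 (adjusted permutation p = 0.563), so that neither cohort passed alone. Leaving out any 1 animal gave r from 0.54 to 0.60. Leaving out the 2 animals whose RICTOR deviated most from the median gave an r of 0.59 with an adjusted permutation p of 0.121. RHEB and TSC1, the activator and its inhibitor, gave r = -0.44 (permutation p = 0.050, adjusted 0.375) and rho = -0.40. The other 13 pairs had adjusted permutation p from 0.459 to 0.988. Pairs with MTOR use a transcript at 0 in 11 of 28 animals, and pairs with RICTOR hold the 0 of Very Heavy-10215. Without that animal, r of RHEB with RICTOR was -0.32, against -0.10 with it.

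The wider pathway was followed through 6 lists with 80 genes, of which 74 were in the table and 71 were tested. In cohort 1, 1 of the 71 was called, beside 0.959% of all transcripts, and 8 were higher and 9 lower in drinkers at an unadjusted p under 0.05, a level that 14.7% of all transcripts reached. Over 28 animals the pathway genes gave 0 calls, with 3 lower (FLCN, WDR24 and RPS6KB2) and 1 higher (LAMTOR4) at an unadjusted p under 0.05 (4.57% of all transcripts). In cohort 2 they gave 0 calls, with 1 higher (PRKCA) at that level (2.0% of all transcripts). In very heavy against heavy drinkers 0 of 70 were called, with 3 higher and 2 lower at that level (4.85%). For the difference between cohorts 0 of 71 were called, with 4 higher and 6 lower at that level (9.62%). LAMTOR4, also among the 8 higher in cohort 1, was at 0 in all controls, and PRKCA was at 0 in the cohort 2 controls, so that LAMTOR4 passed the filter through drinkers alone and neither higher count is read as a result. The median log2 difference of the 71, LAMTOR4 included, was 0.03 in cohort 1 and 0.00 in cohort 2, beside -0.01 and 0.01 over all transcripts.

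The called gene was FLCN, which encodes folliculin, the GTPase activating protein through which amino acids reach the Rag GTPases. The cohort 1 controls ranged from 38.3 to 52.3 CPM with a median of 46.6, and the drinkers from 27.4 to 43.6 with a median of 32.3. FLCN fell in drinkers of cohort 1 by 0.46 on the log2 scale (SE 0.11; edgeR adjusted p = 0.0349). In cohort 2 the value was 0.13 (SE 0.14; adjusted p = 1.0), with controls from 30.1 to 44.4 CPM and drinkers from 29.4 to 47.2, and the difference between cohorts was 0.59 (SE 0.18; adjusted p = 0.279). The call of FLCN was kept in 19 of 28 fits that left out 1 animal (adjusted p from 0.0111 to 0.0734). It was lost with the GC trend removed (adjusted p = 0.215), with the neuron level as a covariate (0.135) and with cohort 1 fitted alone (0.126), where the log2 differences were -0.33, -0.42 and -0.46.

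Among the 12 Rag GTPase, Ragulator and folliculin genes tested, LAMTOR4, a Ragulator subunit, was at 0 in all 11 controls and had counts in 3 of 8 cohort 1 drinkers and 2 of 9 cohort 2 drinkers, at up to 3.69 CPM. LAMTOR1, the subunit that anchors Ragulator to the lysosome, gave 0.21 (SE 0.14; adjusted p = 0.593) in cohort 1 and -0.19 (SE 0.19) in cohort 2, the latter from -0.37 without Control-10250 to -0.05 without Control-10245.

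Of a list of 7 genes that holds RHEB partners, the paralog RHEBL1 and the TSC subunit TBC1D7, 0 were called by edgeR. In cohort 1, DESeq2 (adjusted p = 0.0104) and edgeR with at least 10 counts in every animal (0.0482) called BNIP3. These settings called 443 and 192 of all transcripts in that cohort. BNIP3 is a mitochondrial protein that binds RHEB. Its cohort 1 controls ranged from 89.7 to 116.5 CPM and the drinkers from 107.0 to 149.5, its cohort 2 controls had 105.2, 108.5 and 108.7, and the cohort 2 drinkers ranged from 78.7 to 106.1. The log2 difference was 0.26 (SE 0.074; edgeR adjusted p = 0.0804) in cohort 1 and -0.12 (SE 0.098; adjusted p = 1.0) in cohort 2. PDE6D, the chaperone that carries farnesylated RHEB, gave 0.56 (SE 0.23; adjusted p = 0.211) in cohort 1, or 0.33 without Very Heavy-10214, and -0.01 (SE 0.30) in cohort 2. FKBP1A, the rapamycin-binding protein, gave 0.13 (SE 0.14) and 0.33 (SE 0.19; adjusted p = 1.0), the latter from 0.19 without Control-10241 to 0.51 without Control-10245. RHEBL1 gave -0.14 and -0.39, with no call.

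GATOR1 restrains complex 1 when amino acids are short and GATOR2 opposes it. NPRL3, a GATOR1 subunit, gave -0.55 (SE 0.15; edgeR adjusted p = 0.0655) in cohort 1, with 9.19 to 16.4 CPM in controls and 6.02 to 12.98 in drinkers, and 0.01 in cohort 2. MIOS, a GATOR2 subunit, gave 0.42 (SE 0.14; adjusted p = 0.122) and -0.23 (SE 0.18). The GATOR2 subunits WDR24 and WDR59 gave -0.20 (SE 0.083) and 0.13 (SE 0.24) in cohort 1 and -0.07 (SE 0.11) and 0.49 (SE 0.33) in cohort 2, and neither was called. The cohort 2 value of WDR59 was 0.26 without Control-10241 and 0.79 without Control-10250. By edgeR, 0 genes of the list were called in any comparison, whereas in cohort 1 DESeq2 called NPRL3 (adjusted p = 0.0124) and MIOS (0.0354). For NPRL3, edgeR made a call (0.0444) when every animal had to have at least 10 counts, as well as without Control-10222 (0.0422) and without Low-10210 (0.0271). Of all transcripts in cohort 1, DESeq2 called 443 and edgeR with that count filter called 192.

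In complex 2, PRR5 (protor-1) gave -0.50 (SE 0.16; adjusted p = 0.118) in cohort 1 and -0.14 (SE 0.21) in cohort 2. MAPKAP1 (mSin1), its membrane-binding subunit, gave 0.48 (SE 0.25; adjusted p = 0.388) and -0.63 (SE 0.32; adjusted p = 1.0). TTI1, a chaperone for the assembly of both complexes, was at 0 in 16 of 28 animals.

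Growth factor and energy inputs stayed near 0, with a median of 0.00 in both cohorts over 18 genes. In cohort 1 the catalytic PI3-kinase PIK3CB gave 0.12 (SE 0.11), the AMP kinase subunit PRKAG1 0.01 (SE 0.10) and the stress-induced inhibitor DDIT4L 0.10 (SE 0.23). The AMP kinase subunit PRKAB2 was scarce, at 0 in 5 of 8 cohort 1 drinkers and at most 1.604 CPM in their controls (edgeR adjusted p = 0.212, limma-voom adjusted p = 0.0483). In that cohort limma-voom called 145 of all transcripts.

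Of the 14 targets and translation effectors, EIF4E, the cap-binding factor that complex 1 releases from its repressors, gave 1.00 (SE 0.35; edgeR adjusted p = 0.143) in cohort 1, from 1.14 to 7.39 CPM in controls and from 2.68 to 13.96 in drinkers, and -0.24 (SE 0.45) in cohort 2. EIF4G1, its scaffold, gave -0.56 (SE 0.25; adjusted p = 0.285) and 0.00 (SE 0.34). The ribosomal S6 kinases RPS6KB1 and RPS6KB2 gave 0.04 (SE 0.11) and -0.31 (SE 0.20) in cohort 1, and 0.15 (SE 0.15) and -0.18 (SE 0.26) in cohort 2. PRKCA, a kinase that complex 2 phosphorylates, was at 0 in all 3 cohort 2 controls and in 13 of the other 25 animals.

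**Figure D4:**
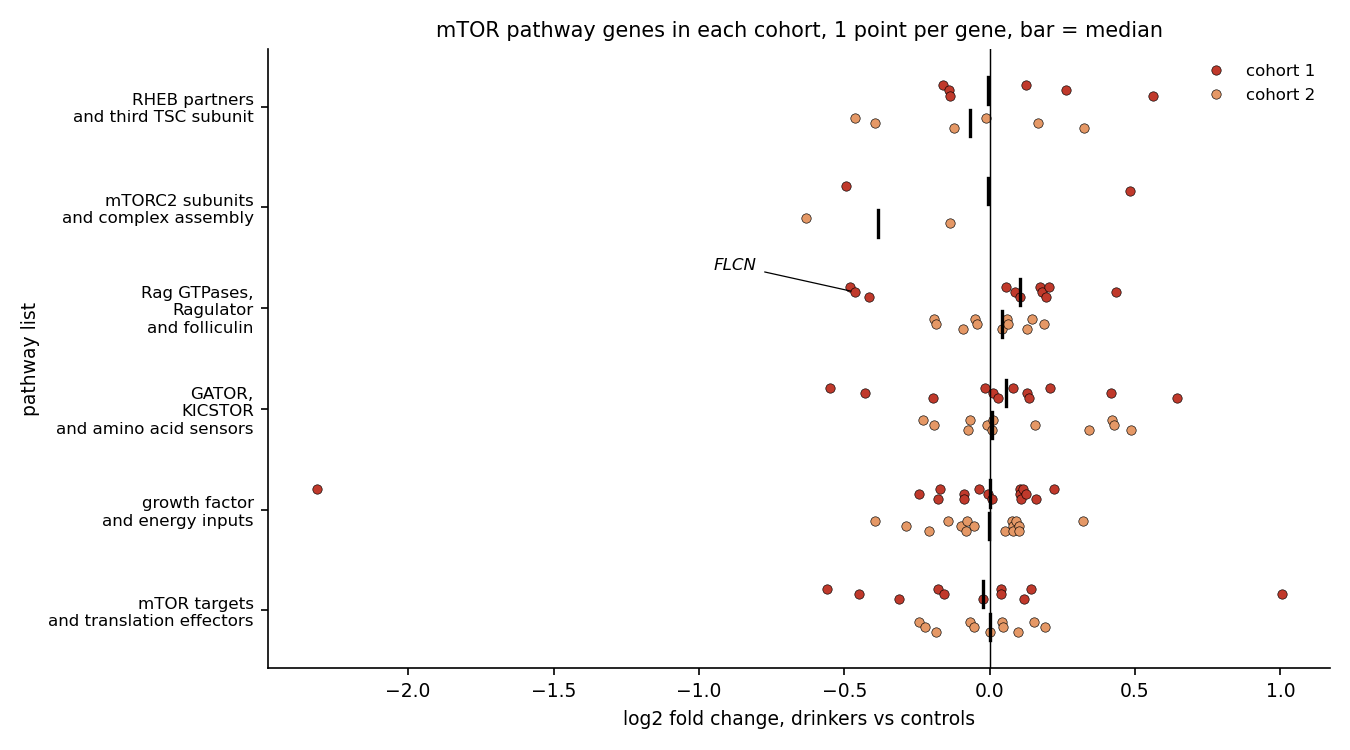
Log2 fold changes of drinkers against controls (horizontal axis) for 58 genes of the 6 pathway lists (vertical axis) in cohort 1 and cohort 2, with 1 point per gene and a bar at the median of the genes plotted. Genes listed at 0 in more than 5 animals are left out. FLCN, at -0.46 in cohort 1 and 0.13 in cohort 2, was the gene called, and PRKAB2 (-2.31) and EIF4E (1.00) lie farthest out in cohort 1.

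The transcripts most like RHEB across the 28 animals were compared among 9003 with a mean of at least 50 normalized counts, as a description in which group differences and libraries are shared. The 5 with the highest Pearson's r were SNX10 (0.90), an endosomal sorting nexin, GHITM (0.88), an inner mitochondrial membrane protein, NDUFB5 (0.87), a subunit of respiratory complex I, GLRX3 (0.86), an iron-sulfur glutaredoxin, and ATP1B1 (0.86), the beta subunit of the sodium pump. Their mean levels were highest in cohort 1 drinkers, for SNX10 with 111.1 CPM against 74.8 in cohort 1 controls, 94.5 in cohort 2 controls and 68.0 in cohort 2 drinkers. The 5 with the lowest r were DDX17 (-0.84) and PRRC2A (-0.83), both RNA-binding proteins, NFIX (-0.80) and TRIM24 (-0.79), regulators of transcription, and TPPP (-0.79), an oligodendrocyte tubulin-binding protein. With group means removed, r was 0.64 to 0.81 for the first 5 and -0.79 to -0.45 for the others. The first 5 had 33.4% to 46.1% GC and the others 44.1% to 61.7%, against 37.6% in RHEB.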

How the data were processed

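The authors trimmed reads with Trim Galore 0.6.7 and quantified them with Salmon 1.9.0 against Mmul_10 transcripts, and deposited 1 table of estimated counts per transcript without normalization. The library kit named in the labels is an mRNA kit. Counts were rounded to whole numbers, and 1 entry without a symbol (1.16e-05% of counts) was left out. A transcript was kept where 3 or more animals had 5 or more counts.

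Groups came from the sample titles and phenotype labels, and cohorts from the animal numbers. edgeR 4.0.16 (TMM, quasi-likelihood test, Benjamini-Hochberg at 0.05; R 4.3.3) was fitted with 4 group means for the cohort contrasts, with 2 groups for the pooled comparison, and with cohort as a covariate for very heavy against heavy drinkers. An SE is the log2 fold change divided by the root of F, and 95% intervals are normal. The 4 groups share 1 estimate of the spread of each transcript. Variance stabilized counts came from DESeq2 1.42.0, and correlations used residuals from the group means with 100000 two-sided permutations within groups (smallest p 1e-05; Python 3.11.15, scipy 1.17.1). The same contrasts were refitted by limma 3.58.1 with voom weights, by the Wald test of DESeq2, and with other size factors, filters and samples. On simulated counts with 200 transcripts changed by 2-fold, the edgeR fit recovered 53% in cohort 1 (106, with 10 other calls). It recovered 42% in cohort 2 (84, with 3 other calls) and 67% over 28 animals (134, with 19 other calls). For the difference between cohorts it recovered 26.5% (53, with 9 other calls), and for very heavy against heavy drinkers 35.5% (71, with 2 other calls). Depth is the total of estimated counts, and values from few counts carry larger counting error.

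The members, the pathway and marker lists were chosen with earlier results of these data known. Named genes are the 9 members, up to 2 genes of each pathway list with the lowest p in each of the cohort 1, cohort 2 and pooled comparisons, and the 5 transcripts with the highest and the lowest r with RHEB. Some genes that this rule names are not reported here. RHEBL1 was named for its sequence, and marker genes for their lists. Coordinates, GC content and coding sequences are from the RefSeq annotation of Mmul_10, and protein sequences and the exons of the listed Ensembl transcripts were not used here. GC content was known for 13271 of 13769 transcripts (96.4%). Voltammetry and intake were not analysed here.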

Additional observations from a re-analysis of the deposited data

Results flagged for a closer look

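RICTOR was listed at 0 CPM in Very Heavy-10215, a drinker of cohort 1, while the other 7 drinkers of that group lay between 26.8 and 47.4 CPM. The gap between this animal and the next, relative to the whole range of the group, passed Dixon's 95% criterion. It was the only such value among 15 combinations of 5 members and 3 groups with 8 or 9 animals, and chance gives about 1 in 20.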

How the results depend on the processing

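No paired analysis was possible because the labels do not say which control was yoked to which drinker, and no animal number is shared between groups. RHEB kept its direction in both cohorts under all alternatives run. Of its differences between drinkers and controls, those that moved by more than the spread between animals did so with the GC trend removed (0.21 in cohort 1 and -0.42 for the difference between cohorts) and with the neuron level as a covariate (-0.42 for the difference), both chosen after seeing the data. RPTOR, RICTOR, MLST8 and TSC1 were not called under any alternative, and MTOR, at 0 in 11 animals, was not followed across them.

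Counts of called transcripts depended on the test and the samples. In cohort 1, 132 became 443 with DESeq2's Wald test, 5 with cohort 1 fitted alone, 5 with the GC trend removed and 29 with the neuron covariate. Leaving out 1 animal gave 38 to 169. Without Control-10217, Control-10219, Control-10220 and Control-10223 there were 42, 41, 39 and 43, without Very Heavy-10212, Very Heavy-10214 and Very Heavy-10215 there were 45, 48 and 38, and without Very Heavy-10242 and Binge-10246 there were 78 and 76. Over 28 animals 0 became 11 with DESeq2. In cohort 2, 0 became 54 with DESeq2 and 3 with limma-voom. For the difference between cohorts, 2 became 152 with DESeq2 and 0 with the GC trend removed or the neuron covariate, and leaving out 1 animal gave 0 to 4 (4 without Control-10250). In very heavy against heavy drinkers 0 became 91 with DESeq2 and 5 at most on leaving out 1 animal (Heavy-10251). The 1 pathway gene called in cohort 1 became 5 with DESeq2 (BNIP3, RRAGC, FLCN, NPRL3 and MIOS), 3 with at least 10 counts in every animal, 2 with limma-voom (FLCN and PRKAB2), and 0 with the GC trend removed, the neuron covariate or cohort 1 alone. Over all transcripts, DESeq2 called 443, the filter of at least 10 counts 192 and limma-voom 145, beside 132 in the main fit. The causes were not tested.

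Some values that were not called changed sign. MLST8 over 28 animals (0.01) was -0.0108 with the cohort covariate and -0.0039 with limma-voom, and -0.0481 to 0.0552 on leaving out 1 animal. RICTOR and TSC1 in cohort 2 reached 0.0127 and 0.0293 on leaving out 1 animal (lowest -0.1819 and -0.2096). RPTOR gave -0.0484 for the difference between cohorts with the GC trend removed. In very heavy against heavy drinkers without the cohort covariate, RHEB gave -0.0792 and RPTOR 0.0746, and RPTOR -0.0756 to 0.0278 on leaving out 1 animal. Among correlations, the 1 called pair became 0 without the 2 farthest animals and in each cohort alone. RHEB with RPTOR turned to -0.0555 and RPTOR and RICTOR with MLST8 to -0.3971 and -0.1477 in cohort 2 alone, RHEB with MLST8 to 0.0191 on log2 CPM and 0.0286 in cohort 1 alone, RICTOR with MLST8 to -0.0117 on log2 CPM, and RPTOR with RICTOR to -0.0682 by rho.

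The cohort 2 comparison has 3 controls, and 42% of simulated 2-fold changes were recovered in it. Smaller changes were not simulated.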
